A study of Mus musculus with 12 samples.

Results

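The genes described here are the enzymes and accessory proteins of *de novo* lipogenesis, the pathway by which the liver turns sugar carbon into fatty acids. They were chosen by name and not by a rule on their values, but with earlier results of these data known: *Fasn*, *Acaca*, *Acacb*, *Acly*, *Acss2*, *Elovl6*, *Scd1*, *Me1*, *Thrsp* and *Pnpla3*, which makes 10 of the 16346 genes in the table of liver RNA-seq values. All 10 had a mean normalized count of at least 10 and were tested. The values come from 12 livers of C57BL6J mice aged 12 weeks, with 2 mice in each of 6 groups. Control mice carried the floxed *Med13* gene (Med13 fl/fl) and, as far as the sources state, no recombinase. The MED13-LKO mice carried the same floxed gene and *Alb*-Cre, a recombinase driven by the albumin promoter in hepatocytes, so that any effect of *Alb*-Cre alone cannot be told apart from that of the deletion. In each genotype, 1 group was fasted overnight for 16 h, and the others were refed for 4 h with normal chow and water containing 30% sucrose or 30% fructose. Refed mice had both chow and sugar and were killed later in the day than fasted mice, so that feeding, the sugar and the time of day cannot be told apart in a comparison with the fasted state.

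Fatty acid synthesis from sugar begins in the cytosol, where ATP citrate lyase (*Acly*) cleaves citrate from the mitochondria to acetyl-CoA and acetyl-CoA synthetase (*Acss2*) makes the same product from acetate. Acetyl-CoA carboxylase (*Acaca*, ACC1) adds a carboxyl group to give malonyl-CoA, fatty acid synthase (*Fasn*) condenses malonyl-CoA units into palmitate with NADPH from malic enzyme (*Me1*) and the pentose phosphate pathway, and *Elovl6* and *Scd1* then lengthen and desaturate the chain. *Acacb* (ACC2) makes malonyl-CoA at the mitochondrial surface, where it restrains the entry of fatty acids through carnitine palmitoyltransferase 1. *Thrsp* (Spot 14) is a small protein induced together with the lipogenic enzymes, and *Pnpla3* is a lipid droplet protein of the patatin family. In liver these genes are known as targets of the transcription factors SREBP-1c, encoded by *Srebf1*, and ChREBP, encoded by *Mlxipl*, which respond to insulin and to sugar phosphates.

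In the GRCm38 annotation the suppliers of acetyl-CoA and NADPH are *Acly* (ENSMUSG00000020917) at chr11:100476353-100528000 on the minus strand, *Acss2* (ENSMUSG00000027605) at chr2:155517948-155585724 on the plus strand and *Me1* (ENSMUSG00000032418) at chr9:86581371-86695953 on the minus strand. The carboxylases and the synthase are *Acaca* (ENSMUSG00000020532) at chr11:84129672-84401651 on the plus strand, *Acacb* (ENSMUSG00000042010) at chr5:114146535-114250761 on the plus strand and *Fasn* (ENSMUSG00000025153) at chr11:120805846-120824547 on the minus strand. The enzymes of elongation and desaturation are *Elovl6* (ENSMUSG00000041220) at chr3:129532355-129638495 on the plus strand and *Scd1* (ENSMUSG00000037071) at chr19:44394455-44407879 on the minus strand, and the accessory genes are *Thrsp* (ENSMUSG00000035686) at chr7:97412938-97417730 on the minus strand and *Pnpla3* (ENSMUSG00000041653) at chr15:84167837-84187236 on the plus strand. *Fasn*, *Acaca* and *Acly* thus share chromosome 11, apart from one another. The values are per gene and not per transcript. Sequence shared with another gene was found for 33.4% of the 31-base stretches of *Acaca* (mainly the pseudogene *Gm5182*) and 30.0% of those of *Me1* (mainly *Gm7049*), and for 8.37% in *Pnpla3*, 8.14% in *Scd1* and 6.41% in *Elovl6*. Reads from such stretches can be divided between the copies, and how far this moved the levels was not tested.

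Before the lipogenic genes were compared, the libraries were checked against their labels. *Med13* itself ran from 646.4 to 1055 normalized counts under the MED13-LKO label and from 577.6 to 796.3 in controls, so that its RNA was not reduced (log2 fold change averaged over diets 0.22, adjusted p = 0.201). The value is summed over the gene and does not show a lost exon, so these mice are called by their label. The normalized counts of all genes summed to between 21062211 and 24152885 in control libraries and between 17309215 and 18738563 in those labelled MED13-LKO. The 4 hepatocyte markers found in the table (*Alb*, *Ttr*, *Apoa1* and *Serpina1c*) were abundant in each library, and their summed level was 2250489 to 2889477 in controls and 1702432 to 2036962 under the MED13-LKO label. Summed markers in controls and under the label were 2909 to 4042 and 3802 to 5039 for Kupffer cells, 3058 to 3644 and 3553 to 5016 for sinusoidal endothelial cells, 5456 to 7000 and 5265 to 6486 for stellate cells, 666 to 876 and 534 to 849 for cholangiocytes, and 13.3 to 28.6 and 19.4 to 40.3 for lymphocytes. In such bulk samples fewer cells of a type and less RNA per cell cannot be told apart. One library stood apart: control fructose mouse 1 held 22.47 normalized counts of *Adipoq*, 77.23 of *Cfd* and 9.94 of *Retn*, which are made by fat cells, where the other 11 libraries held at most 3.438, 2.069 and 2.791. The summed level of the 5 adipocyte markers in the table was 512 in that library and 216 to 354 elsewhere. Fat cells also make lipogenic enzymes, so that the counts of called genes with fructose in control mice are given with and without that library.

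Short stretches of sequence upstream of the lipogenic genes are shown for *Fasn*, *Acly* and *Pnpla3*, since *Fasn* and *Acly* rose in each of 4 feeding comparisons below, *Pnpla3* was the gene with the widest range of levels over the libraries, and the RefSeq starts of all 3 lie at or just before the start of the gene in the annotation. Each is the 250 bases before the start on GRCm38.p6, from RefSeq, with the CCAAT box (CCAAT, bound by NF-Y) and the GC box (GGGCGG, bound by Sp1-type factors) in capitals on either strand. The *Fasn* stretch lies at chr11:120824548-120824797 (minus strand), that of *Acly* at chr11:100528001-100528250 (minus strand) and that of *Pnpla3* at chr15:84167566-84167815 (plus strand).
Fasn: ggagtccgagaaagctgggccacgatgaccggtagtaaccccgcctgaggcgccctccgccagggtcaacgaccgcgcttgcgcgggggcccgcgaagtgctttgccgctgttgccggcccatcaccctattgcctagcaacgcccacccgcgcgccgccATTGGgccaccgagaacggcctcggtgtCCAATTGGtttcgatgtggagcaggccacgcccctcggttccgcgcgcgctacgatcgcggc
Acly: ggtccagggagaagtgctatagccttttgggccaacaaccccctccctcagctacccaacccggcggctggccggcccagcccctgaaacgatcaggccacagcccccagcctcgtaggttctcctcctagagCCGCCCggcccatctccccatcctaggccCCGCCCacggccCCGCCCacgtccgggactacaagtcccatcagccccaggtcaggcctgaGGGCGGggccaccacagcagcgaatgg
Pnpla3: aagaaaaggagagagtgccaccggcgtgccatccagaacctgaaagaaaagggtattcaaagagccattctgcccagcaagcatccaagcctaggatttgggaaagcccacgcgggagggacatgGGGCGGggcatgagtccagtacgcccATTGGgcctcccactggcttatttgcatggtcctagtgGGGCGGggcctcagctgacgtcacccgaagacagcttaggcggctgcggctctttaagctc
The *Fasn* stretch held 3 CCAAT boxes, 90, 62 and 59 bases before the start, the last pair overlapping on opposite strands, and no GC box. The *Acly* stretch held 4 GC boxes, 117, 88, 76 and 27 bases before the start, and no CCAAT box. That of *Pnpla3* held 1 CCAAT box and 2 GC boxes. RefSeq sequences were matched for 9 of the 10 genes (10 stretches, since *Me1* has 2 starts), and *Scd1* was not matched. Of the 10 stretches, 6 held a CCAAT box and 4 a GC box, against 33.8% and 32.7% of 32851 stretches of the same length across the mouse genome. None held CACGTG, the only form of the E-box searched, which 6.02% of all stretches held, or TCACNCCAC, a form of the sterol response element held by 1.05%. The *Elovl6* stretch held none of these 4 letter strings and that of *Acss2* held 1 CCAAT box and 4 GC boxes. The entries for *Acaca* and *Acacb* and 1 of the 2 for *Me1* begin 65766, 18983 and 8676 bases inside the genes. Among these, that of *Acacb* and that of *Me1* each held 1 of the CCAAT boxes counted. These matches describe letters in a window and not bound sites.

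The abundance of the 10 transcripts spanned a wide range, which is compared here as normalized count per kilobase of the longest coding transcript. In fasted control liver *Scd1* (8447 and 5380 per kilobase in the 2 mice) and *Thrsp* (7280 and 5086) were the highest and overlapped each other. *Acly* (1136 and 976), *Me1* (1041 and 1000) and *Acss2* (1018 and 982) formed the next level, each overlapping its neighbour in the order. *Elovl6* (297 and 196) overlapped *Acaca* (249 and 197), and below them *Fasn* (128 and 108), *Acacb* (52.5 and 35.3) and *Pnpla3* (5.16 and 2.75) were separated from one another. With sucrose in control liver the order changed: *Elovl6* reached 5454 and 2975 per kilobase and *Fasn* 3566 and 1941, so that both passed *Acss2* at 1964 and 1256, although each still overlapped its neighbour in the order. *Acacb* and *Pnpla3* were the lowest in that group, at 302 and 159 and at 238 and 60.6 per kilobase, and overlapped. Only in the fasted libraries labelled MED13-LKO did *Acacb* (144 and 132 per kilobase) stand above *Fasn* (105 and 69.5), without overlap.

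To determine how sucrose feeding changed the pathway in control liver, refed mice were compared with fasted mice. Of the 10 genes, 8 rose and none fell, where 4.85% of the 12366 genes tested rose and 3.72% fell, and the median log2 fold change was 2.33 against -0.02 for all genes tested. At the head of the pathway *Acly* rose from 5029 and 4321 normalized counts in the fasted mice to 52529 and 24448 with sucrose (log2 fold change 2.94, standard error 0.363, adjusted p = 0.00126). *Acss2* went from 2985 and 2879 to 5756 and 3682, and this change of 0.65 (adjusted p = 0.133) was not called. The next reaction, the carboxylation of acetyl-CoA, is the committed step of the pathway. *Acaca* rose from 2372 and 1878 to 11961 and 8757 (2.28, standard error 0.282, adjusted p = 0.00129). *Acacb*, the mitochondrial form, rose from 461.6 and 310.2 to 2658 and 1398 (2.35, standard error 0.356, adjusted p = 0.00403). *Fasn* rose from 1290 and 1085 to 35838 and 19511, which is 22.3-fold (4.48, standard error 0.367, adjusted p = 0.000313). In each of these genes both sucrose-fed mice were above both fasted mice. Groups of 2 mice can also separate by chance, and the share of all genes that did so is not given.

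Downstream of the synthase, *Elovl6* rose from 1767 and 1163 to 32459 and 17706, or 16.7-fold (4.06, standard error 0.406, adjusted p = 0.000499). *Scd1*, the desaturase, went from 40814 and 25996 to 167333 and 67058, and its change of 1.70 (95% interval 0.59 to 2.81) had an adjusted p = 0.0639. Its mice differed 2.5-fold in the sucrose group, but the standard error comes from the fit of all 6 groups. *Scd1* passed the threshold when libraries were scaled to equal totals (1.83, adjusted p = 0.0419). The NADPH supplier *Me1* rose from 3428 and 3292 to 14994 and 9907 (1.86, standard error 0.169, adjusted p = 0.000391). Its standard error was the smallest of the 10 genes. *Thrsp* rose from 9297 and 6494 to 44733 and 33356 (2.31, standard error 0.519, adjusted p = 0.0241), but lost its call when any 1 of the 4 mice was left out (adjusted p up to 0.147). *Pnpla3* rose from 6.777 and 3.613 to 311.9 and 79.57 (4.73, standard error 0.706, adjusted p = 0.00379). Its level per kilobase was the lowest of the 10 genes, and its fold was the largest when both sucrose mice were used but not without sucrose mouse 1, where it was 3.75 on the log2 scale and that of *Fasn* 4.04. The plot of normalized counts by library shows that in all 10 genes sucrose mouse 1 was above sucrose mouse 2.

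**Figure D1:**
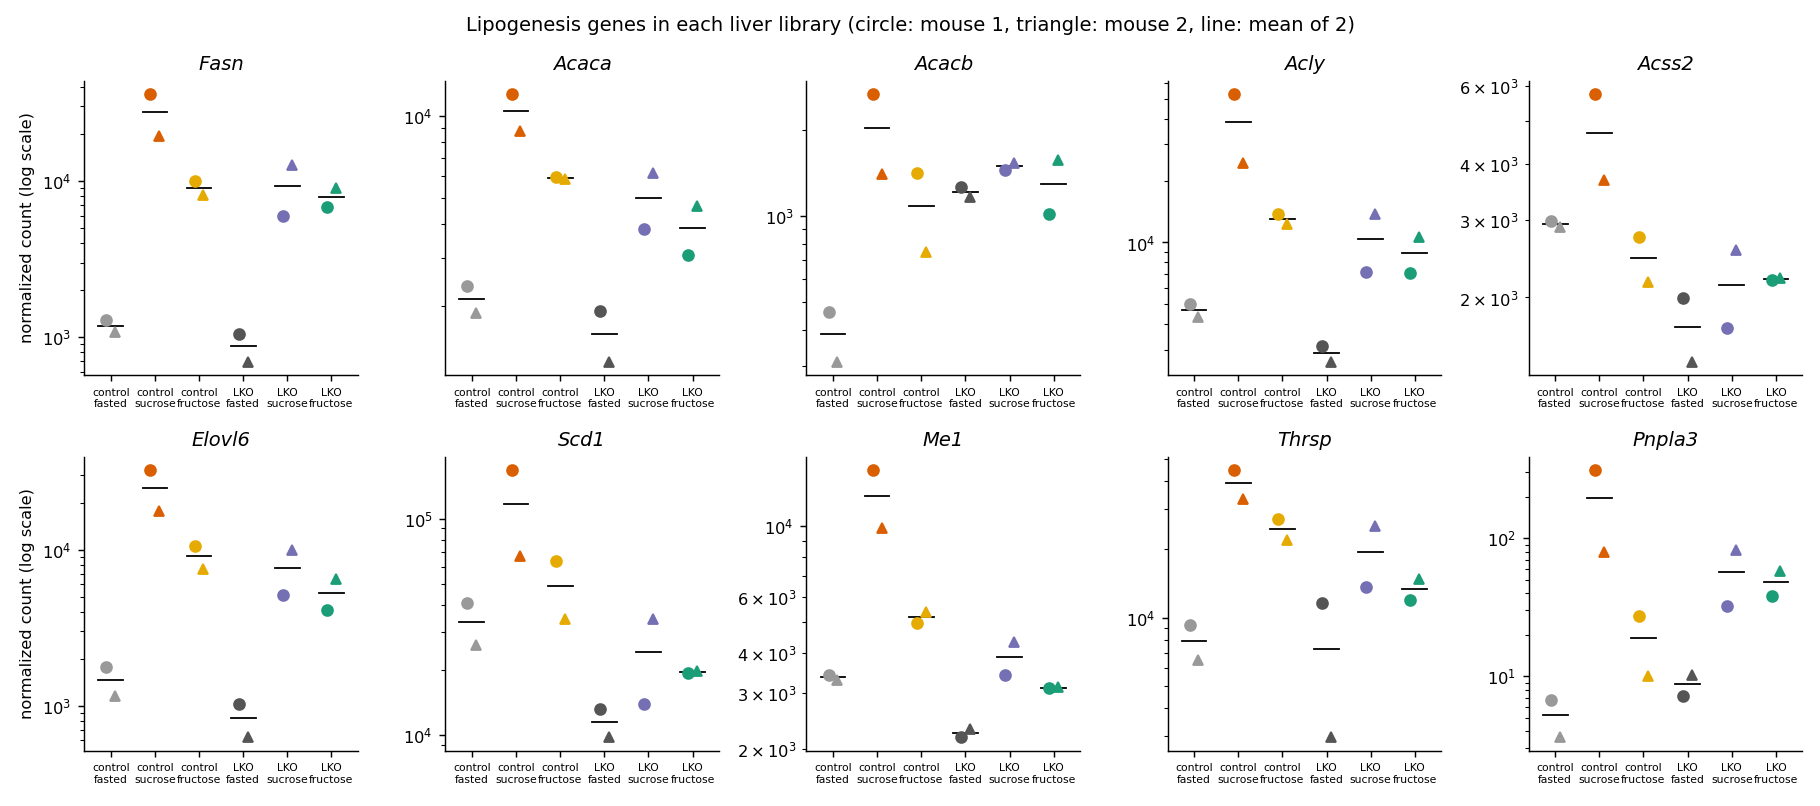
Normalized counts (log axis, a separate scale for each gene) of the 10 lipogenesis genes in the 12 liver libraries, grouped by genotype label and diet, with a circle for mouse 1, a triangle for mouse 2 and a line at their mean. In control liver the sucrose-fed mice are above the fasted mice in each gene, and in the fed libraries labelled MED13-LKO mouse 2 is above mouse 1 throughout. The share of all genes that separate fed from fasted mice in this way is not given.

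With fructose in control liver, 5 of the 10 genes rose, where 2.79% of all genes tested rose, none fell, and the median log2 fold change was 1.48 against -0.01 for all genes. *Fasn* rose to 9981 and 8111 (7.6-fold, log2 fold change 2.93, standard error 0.367, adjusted p = 0.00305) and *Elovl6* to 10625 and 7500 (2.64, standard error 0.406, adjusted p = 0.00715). *Acaca* rose to 5937 and 5829 (1.48, adjusted p = 0.0177), *Acly* to 13799 and 12316 (1.48, adjusted p = 0.0441) and *Acacb* to 1411 and 749.8 (1.44, adjusted p = 0.0458). The other 5 genes were not called: *Me1* had 4976 and 5381 (0.62, adjusted p = 0.0619), *Thrsp* 27327 and 22045 (1.66, adjusted p = 0.0947) and *Pnpla3* 27.55 and 10.11 (1.57, adjusted p = 0.219). *Scd1*, at 63815 and 34307, overlapped the fasted mice (0.52, adjusted p = 0.572). *Acss2*, at 2744 and 2166, was the only gene of the 10 with a negative change in this comparison (-0.27, adjusted p = 0.554), and both mice were below both fasted mice.

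Without fructose mouse 1, whose library held the fat cell markers, 2 of the 10 genes were called in control liver, *Fasn* and *Elovl6*. The markers were higher in that mouse than in fructose mouse 2, and so were 9 of the 10 genes, *Me1* being the exception. Mouse 1 was also higher in 10 of 10 genes in fasted and in sucrose-fed control. The median log2 difference, mouse 2 minus mouse 1, was -0.33 with fructose, -0.43 fasted and -0.88 with sucrose, against 0.00 for all genes tested. The part of fat cell RNA in these differences was not tested. The count also fell from 5 to 2 without fasted mouse 1 and to 1 without fasted mouse 2, and it was 3 when only the 4 libraries compared were fitted. *Fasn* was the 1 gene called whichever of these 4 mice was left out (log2 fold change 2.78 to 3.08).

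In the libraries labelled MED13-LKO, *Fasn*, *Acaca*, *Acly* and *Elovl6* rose with both sugars, as these 4 genes also did in control liver. With sucrose 5 genes rose, where 2.23% of all genes tested rose, and the median was 1.65 against 0.00 for all genes. *Fasn* went from 1050 and 698.7 when fasted to 5983 and 12721 with sucrose (10.2-fold, log2 fold change 3.35, standard error 0.367, adjusted p = 0.0016). *Elovl6* went from 1030 and 628.2 to 5166 and 10035 (3.16, standard error 0.406, adjusted p = 0.00269). *Acly* went from 3148 and 2634 to 7179 and 13697 (1.78, adjusted p = 0.0208), *Acaca* from 1909 and 1249 to 3822 and 6143 (1.65, adjusted p = 0.00968) and *Me1* from 2182 and 2323 to 3431 and 4345 (0.78, adjusted p = 0.0275). In these 5 genes the fed and fasted mice did not overlap, but the share of all genes without overlap is not given.

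With fructose under the same label, 4 of the 10 genes rose, where 2.94% of all genes tested rose. *Fasn* reached 6768 and 9007 (9.1-fold, log2 fold change 3.19, adjusted p = 0.00271), *Elovl6* 4123 and 6455 (2.68, adjusted p = 0.00681), *Acly* 7120 and 10616 (1.59, adjusted p = 0.0316) and *Acaca* 3080 and 4672 (1.30, adjusted p = 0.0266). *Me1*, at 3113 and 3133, changed by 0.47 (adjusted p = 0.128). Leaving out 1 mouse lowered the count with sucrose to as few as 2 (without fasted mouse 2 or sucrose mouse 2) and that with fructose to 1 (without fasted mouse 2 or fructose mouse 2), and the calls of *Fasn* held throughout.

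The remaining genes did not pass the threshold with either sugar under the MED13-LKO label. *Acacb* hardly moved, from 1265 and 1164 when fasted to 1449 and 1536 with sucrose (0.30, 95% interval -0.50 to 1.09) and 1012 and 1574 with fructose (0.06, 95% interval -0.74 to 0.85). *Scd1* went from 13233 and 9808 to 13932 and 34362 with sucrose (0.94, adjusted p = 0.32) and 19399 and 19763 with fructose (0.78, adjusted p = 0.387). *Acss2* went from 1990 and 1433 to 1707 and 2558 and to 2195 and 2214 (0.31 and 0.38, adjusted p = 0.524 and 0.381). *Thrsp* had the widest spread among fasted mice, 11640 and 2971, a 3.92-fold difference between mice of 1 group, and reached 13669 and 25296 with sucrose and then 11950 and 14833 under fructose (1.66 and 1.18, adjusted p = 0.097 and 0.209). *Pnpla3* went from 7.232 and 10.22 to 32.39 and 81.87 and to 38.42 and 58.01 (2.45 and 2.33, adjusted p = 0.0753 and 0.08).

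**Figure D2:**
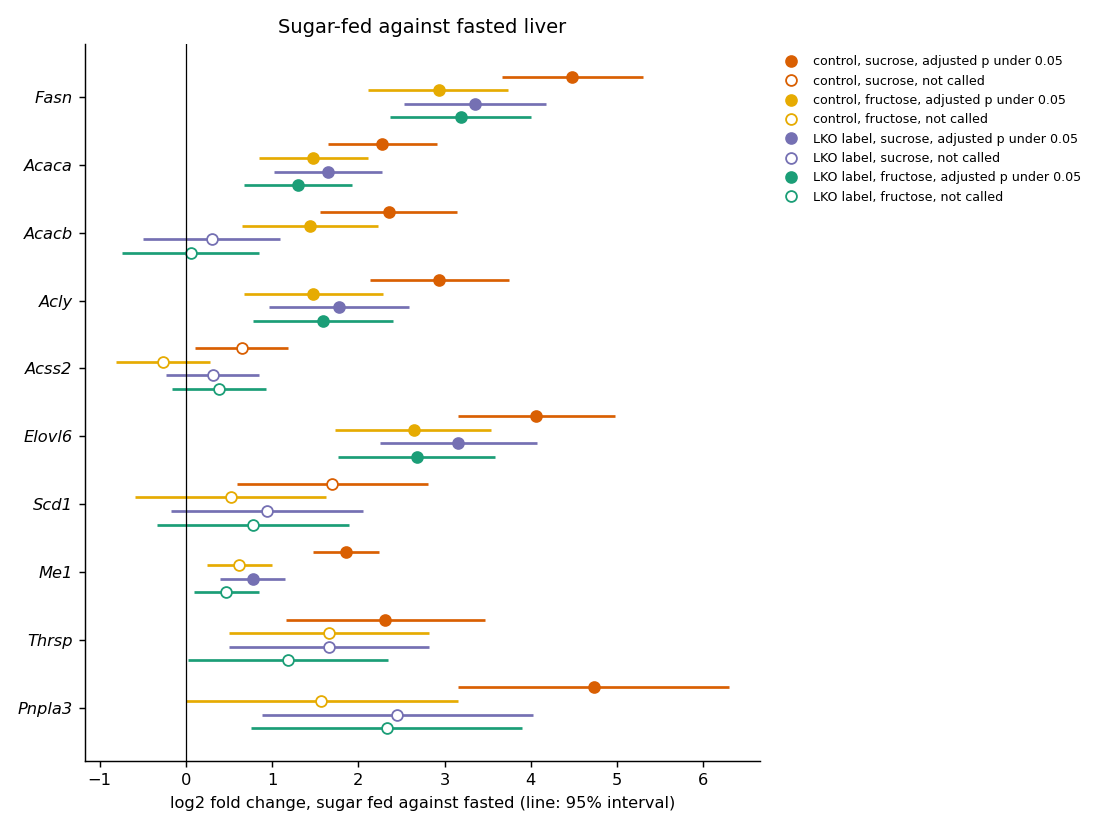
Log2 fold change of each lipogenesis gene (rows) in sugar-fed against fasted liver, for control mice and for mice labelled MED13-LKO and for each sugar, with lines for the 95% interval and filled points where the adjusted p is under 0.05. *Fasn*, *Acaca*, *Acly* and *Elovl6* have 4 filled points each, and *Acss2* and *Scd1* have none.

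Averaged over both sugars and both genotypes, 9 of the 10 genes rose in fed liver, where 10.7% of all genes tested rose. *Fasn* rose by 3.48 (standard error 0.225, adjusted p = 2.93e-05), *Elovl6* by 3.13 (adjusted p = 4.83e-05) and *Pnpla3* by 2.77 (adjusted p = 0.00189). The smallest called change was that of *Me1* at 0.93 (adjusted p = 0.000296). *Acacb* was called at 1.04 (adjusted p = 0.00847), an average of unlike changes. With sucrose and fructose they were 2.35 and 1.44 in control and 0.30 and 0.06, not called, under the MED13-LKO label. *Scd1*, at 0.99, was the weakest call (adjusted p = 0.044) and kept it in 3 of the 12 fits that left out 1 mouse, but not without control fructose mouse 1 (0.87, adjusted p = 0.0679). *Acss2* was the gene not called (0.27, 95% interval -0.06 to 0.60, adjusted p = 0.229).

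The sugars were compared with each other to ask whether fructose gave a smaller response than sucrose. In control liver all 10 genes had a negative log2 fold change for fructose against sucrose, with a median of -1.21 against -0.01 for all genes, but limma called none of them (9 had an unadjusted p under 0.05, as did 1061 of 12366 genes). Very few genes at all were called lower in this comparison, 0.0162% of those tested. *Me1* was nearest to the threshold, at 4976 and 5381 normalized counts with fructose against 14994 and 9907 with sucrose (-1.24, standard error 0.169, adjusted p = 0.053). It passed with a pseudocount of 0.1, with no filter on low values, with equal 75th percentiles (adjusted p = 0.0365, 0.0362 and 0.0494) and without sucrose mouse 2 or fructose mouse 2. *Pnpla3* had the largest difference (-3.16, 95% interval -4.73 to -1.58, adjusted p = 0.225), followed by *Fasn* (-1.56, 95% interval -2.37 to -0.74, adjusted p = 0.279) and *Acly* (-1.46, adjusted p = 0.329). Without fructose mouse 1, whose library held fat cell markers, none of the 10 genes was called.

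Under the MED13-LKO label, the median difference between the sugars was -0.22, and none of the 10 genes was called in limma or had an unadjusted p under 0.05 (951 of 12366 genes did), where 0.0404% of all genes were called lower. *Fasn* differed by -0.16 (95% interval -0.98 to 0.66) and *Elovl6* by -0.48 (95% interval -1.39 to 0.42), intervals that hold both no difference and a sizeable one. *Me1* differed by -0.31 (95% interval -0.68 to 0.07) and its fructose mice, at 3113 and 3133, lay below its sucrose mice, at 3431 and 4345. Averaged over the genotypes, limma called 0 of the 10 genes (8 at an unadjusted p under 0.05, as were 1172 of 12366 genes), where 0.0323% of all genes were called lower, and *Me1* again had the smallest adjusted p (-0.77, adjusted p = 0.101).

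Next, the libraries labelled MED13-LKO were compared with controls in each diet. With sucrose, 6 of the 10 genes were lower under the MED13-LKO label, where 3.33% of all genes tested were lower, and the median was -1.60 against 0.00 for all genes. *Scd1* was lower by 4.84-fold (13932 and 34362 against 167333 and 67058 in control, log2 fold change -2.28, standard error 0.498, adjusted p = 0.0274). *Acly* was lower by 3.61-fold (-1.85, standard error 0.363, adjusted p = 0.0168), *Elovl6* by 3.33-fold (-1.74, standard error 0.406, adjusted p = 0.0349) and *Me1* by 3.16-fold (-1.66, standard error 0.169, adjusted p = 0.000509). *Fasn* was lower by 3.03-fold (-1.60, standard error 0.367, adjusted p = 0.0323) and *Acss2* by 2.2-fold (-1.14, standard error 0.243, adjusted p = 0.0244). In these 6 genes, which cover acetyl-CoA supply, NADPH, synthesis, elongation and desaturation, the mice of the groups did not overlap. The share of all genes without overlap is not given.

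*Acaca* just missed the threshold with sucrose (-1.08, 95% interval -1.71 to -0.45, adjusted p = 0.0532), and *Thrsp* (-1.05, adjusted p = 0.283), *Pnpla3* (-1.59, adjusted p = 0.227) and *Acacb* (-0.37, adjusted p = 0.622) were not called. Of the 6 calls, only that of *Me1* held when control sucrose mouse 1 or MED13-LKO sucrose mouse 1 was left out, and only that of *Me1* held when the fit was limited to the 4 libraries compared or used 1 prior variance for all genes. The size of the difference stayed negative in each of those fits, from -2.93 to -1.62 for *Scd1* and from -2.14 to -1.06 for *Fasn* with 1 mouse left out. The 4 hepatocyte markers were also lower with sucrose, by 0.29 to 0.45 on the log2 scale and none of them called. *Cd5l* of Kupffer cells was called higher (0.56, adjusted p = 0.0439) and *Dcn* of stellate cells lower (-0.38, adjusted p = 0.0447). *Reln* and *Rgs5* of stellate cells had positive values without a call (0.23 and 0.09). The part of these markers in the differences was not tested.

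In the fasted state no gene of the 10 was lower by the test under the MED13-LKO label, where 4.86% of all genes tested were. Only 1 was higher, where 4.12% of all genes were, so that 1 gene is near that background. That gene was *Acacb*, with 1265 and 1164 normalized counts against 461.6 and 310.2 in fasted controls, a 3.2-fold difference (log2 fold change 1.68, standard error 0.356, adjusted p = 0.0188). Its call held without control mouse 1 and was lost without each of the other 3 mice (1.39 to 1.96, adjusted p up to 0.126). The fasted level of *Acacb* under the MED13-LKO label thus lay within the range of its fed levels in either genotype, 749.8 to 2658. *Elovl6* was lower (-0.83, adjusted p = 0.232) and *Pnpla3* higher (0.68, adjusted p = 0.592), neither with a call. Also lower without a call were *Scd1* (-1.52, adjusted p = 0.0886), *Acss2* (-0.80, adjusted p = 0.071), *Me1* (-0.58, adjusted p = 0.0621) and *Acly* (-0.69, adjusted p = 0.264). All 4 passed when only the fasted libraries were fitted (adjusted p = 0.0257, 0.0438, 0.014 and 0.0308). *Fasn* differed by -0.47 (95% interval -1.28 to 0.35). Of the hepatocyte markers, *Ttr* and *Serpina1c* were called lower in fasted mice (-0.54 and -0.46) and *Cd5l*, *Stab2*, *Kdr* and *Clec4g* of other liver cells higher (0.57, 0.57, 0.58 and 0.39), as was *Cidec* of the adipocyte list (0.95), and their part in the differences was not tested.

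With fructose, 1 of the 10 genes was lower under the MED13-LKO label, where 3.95% of all genes tested were, so that 1 gene is near that background. It was *Me1* (3113 and 3133 against 4976 and 5381, log2 fold change -0.73, standard error 0.169, adjusted p = 0.0296), and it lost its call when any 1 of the 4 mice was left out and at equal totals (-0.41, adjusted p = 0.11). *Scd1* differed by -1.26 (95% interval -2.37 to -0.15, adjusted p = 0.162) and *Elovl6* by -0.79 (adjusted p = 0.281). *Fasn* differed by -0.20 (95% interval -1.02 to 0.61, adjusted p = 0.793) and *Acss2* by -0.15 (adjusted p = 0.774), and both changed sign at equal totals, to 0.12 and 0.18, a scaling that moved the median of all genes in this comparison to 0.32. *Pnpla3* went the other way, at 38.42 and 58.01 against 27.55 and 10.11, without overlap and without a call (1.44, adjusted p = 0.257). Without control fructose mouse 1, which held the fat cell markers, none of the 10 genes was called. Over the 4 fits that left out 1 mouse *Scd1* ran from -1.70 to -0.81 and *Fasn* from -0.41 to 0.00. Of the cell type markers in this comparison, *Ttr* and *Serpina1c* of hepatocytes were called lower (-0.39 and -0.55) and *Cd5l* of Kupffer cells higher (0.75), and their part in the differences was not tested.

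**Figure D3:**
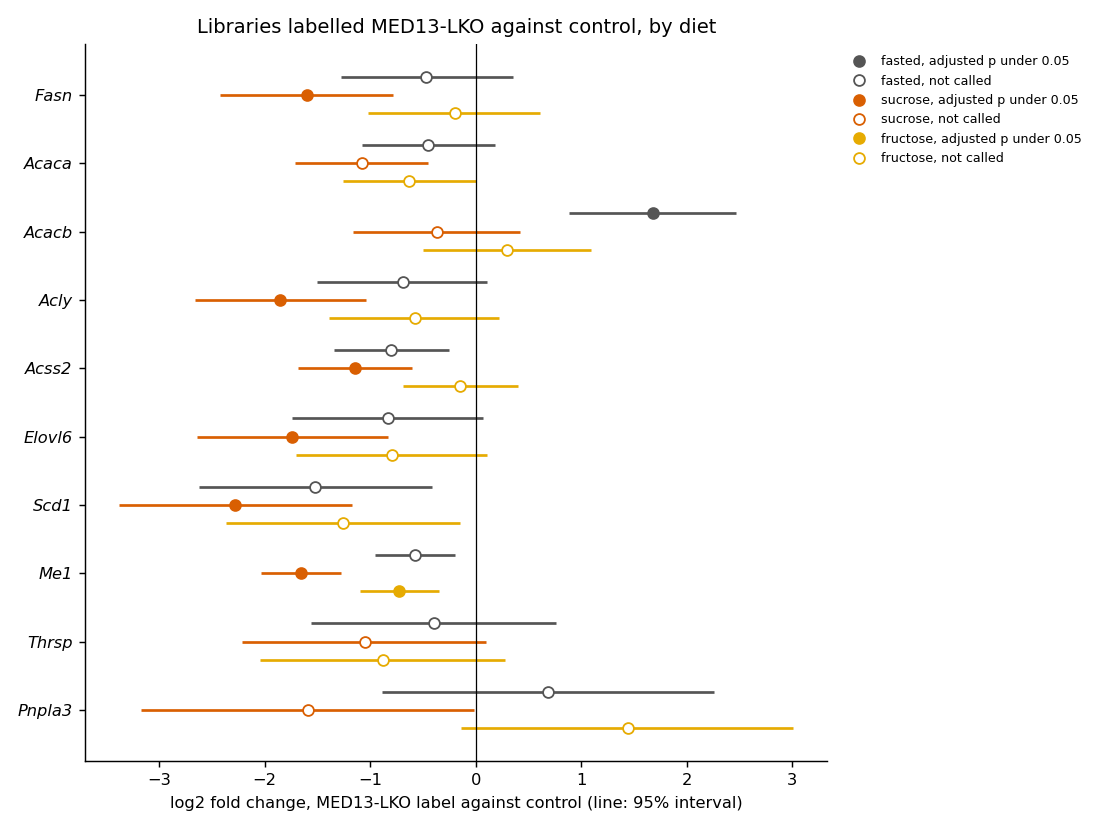
Log2 fold change of each lipogenesis gene (rows) in libraries labelled MED13-LKO against control libraries, separately for fasted, sucrose-fed and fructose-fed mice, with lines for the 95% interval and filled points where the adjusted p is under 0.05. The 6 filled sucrose points lie between -2.28 and -1.14, and *Acacb* has the only filled point to the right of 0, in fasted liver.

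Averaged over the diets, 7 of the 10 genes were lower under the MED13-LKO label, where 13.2% of all genes tested were lower. The sizes ran from -1.68 for *Scd1* (standard error 0.287, adjusted p = 0.00233), -1.12 for *Elovl6* (adjusted p = 0.00685) and -1.04 for *Acly* (adjusted p = 0.00561) to -0.99 for *Me1* (adjusted p = 8.97e-05), -0.76 for *Fasn* (adjusted p = 0.0264), -0.72 for *Acaca* (adjusted p = 0.00979) and -0.69 for *Acss2* (adjusted p = 0.00576). In the 12 fits that left out 1 mouse, the call of *Fasn* held in 6 and those of the other 6 genes in all 12. Without control fructose mouse 1 *Fasn* was not called (-0.71, adjusted p = 0.0562) and *Acacb* was called higher (0.69, adjusted p = 0.0286). *Acacb*, with 0.53 (adjusted p = 0.0857), and *Pnpla3*, with 0.18, had positive values, and *Thrsp* had -0.78 (adjusted p = 0.0856). Scaling to equal totals moved the median of all genes in this comparison from 0.01 to 0.32, and the split of calls then became 5 lower and 1 higher, with *Fasn* (-0.44, adjusted p = 0.0914) and *Acaca* (-0.40, adjusted p = 0.053) lost and *Acacb* (0.85, adjusted p = 0.0058) gained. The 4 hepatocyte markers were called lower in the same comparison, by 0.36 to 0.45 on the log2 scale. *Cd5l* of Kupffer cells (0.63) and *Stab2*, *Kdr* and *Clec4g* of sinusoidal endothelial cells (0.37, 0.35 and 0.26) were called higher. *Dcn* of stellate cells and *Spp1* of cholangiocytes were called lower (-0.26 and -0.33). Other markers of these cells had positive values without a call: *Reln* and *Rgs5* of stellate cells (0.02 and 0.14) and *Krt7* and *Sox9* of cholangiocytes (0.21 and 0.48). Their part in the differences was not tested.

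Whether feeding raised the genes less under the MED13-LKO label was tested as the difference between the feeding responses. For sucrose all 10 differences were negative (median -0.99 against -0.01 for all genes), but limma called none of them (4 had an unadjusted p under 0.05, as did 1055 of 12366 genes), where 0.146% of all genes were called in either direction. The values nearest to the threshold were *Me1* at -1.08 (95% interval -1.61 to -0.55, adjusted p = 0.235) and *Acacb* at -2.05 (95% interval -3.17 to -0.92, adjusted p = 0.292), followed by *Acly* at -1.16 (adjusted p = 0.577) and *Pnpla3* at -2.28 (adjusted p = 0.572). That of *Me1* was called without control sucrose mouse 2 (-1.38, adjusted p = 0.0255). *Fasn* had -1.13 (95% interval -2.29 to 0.02, adjusted p = 0.59).

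For fructose the differences in response had both signs, with a median of 0.08, and limma called 0 of the 10 (1 at an unadjusted p under 0.05, *Acacb*, and 1170 of 12366 genes), where 0.0243% of all genes were called. *Acacb* had -1.38 (95% interval -2.51 to -0.26, adjusted p = 0.456), and *Fasn* had 0.26 (95% interval -0.90 to 1.42). The difference between fructose and sucrose was then compared between the genotypes. All 10 values were positive (median 0.97 against 0.00 for all genes), limma called 0 (5 at an unadjusted p under 0.05, and 855 of 12366 genes), and 0.105% of all genes were called. *Me1* had 0.93 (95% interval 0.40 to 1.46, adjusted p = 0.502) and *Acly* 1.27 (95% interval 0.12 to 2.41, adjusted p = 0.679). These 3 comparisons share libraries with each other and with those above. Without control fructose mouse 1, none of the 10 genes was called in either comparison that includes fructose, and *Acacb* had -0.93 in the first and *Me1* 0.87 in the second.

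A feature of the 10 genes that their selection did not use was how they varied between mice of 1 group. The mice of a group differed in the same direction in nearly all of the genes: mouse 1 was higher in 10 of 10 in fasted control, 10 of 10 in sucrose-fed control, 9 of 10 in fructose-fed control and 8 of 10 in fasted MED13-LKO. Mouse 2 was higher in 10 of 10 in both fed groups under the MED13-LKO label. The median absolute log2 difference of the 10 genes was 0.43, 0.88 and 0.33 in fasted, sucrose-fed and fructose-fed controls, where that of all genes tested was 0.16, 0.18 and 0.22. Under the MED13-LKO label it was 0.46, 0.91 and 0.49, where that of all genes was 0.17, 0.15 and 0.17. The genes therefore varied together from mouse to mouse, and the 10 values of 1 liver are not independent measurements of the diet or the genotype. Among the 6 genes called between genotypes with sucrose, *Me1* varied least in that diet (-0.60 in control and 0.34 under the MED13-LKO label), and of all 10 genes *Scd1* and *Pnpla3* varied most (-1.32 and -1.96 in control, 1.30 and 1.31 under the MED13-LKO label).

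**Figure D4:**
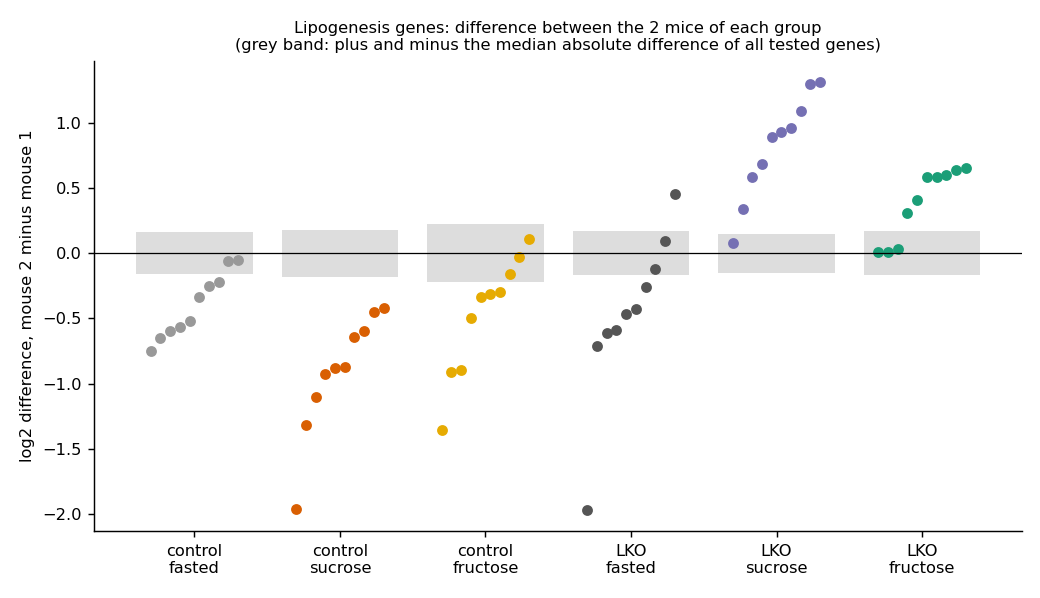
Log2 difference between mouse 2 and mouse 1 of each group for the 10 lipogenesis genes (points, sorted within each group), with a grey band for plus and minus the median absolute difference of all genes tested. The 10 points lie below 0 in fasted and sucrose-fed control mice and above 0 in both fed groups labelled MED13-LKO, mostly outside the band.

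Other genes of the pathway were taken from lists of related enzymes and regulators. Of 18 tested genes that supply carbon and NADPH, 9 rose with sucrose in control liver, where 4.85% of all genes tested rose. They included *Pklr*, the liver pyruvate kinase (2.66, adjusted p = 0.000431), *Tkfc*, which phosphorylates glyceraldehyde in fructose breakdown (1.85, adjusted p = 0.00103), and *Pgd* of the pentose phosphate pathway (1.52, adjusted p = 0.00786). The median of the 18 was 0.39. *Slc25a1*, the carrier that exports citrate from mitochondria, rose by 0.32 (adjusted p = 0.038) and lost its call without any 1 of the 4 mice. With fructose 2 of the 18 rose, against 2.79% of all genes (*Pklr* 1.60 and *Tkfc* 1.35, adjusted p = 0.00733 and 0.00845), and *Mdh1* fell (-0.73, adjusted p = 0.0348). Without control fructose mouse 1 the calls of *Pklr* (1.69) and *Tkfc* (1.49) held and that of *Mdh1* was lost (adjusted p = 0.1). Under the MED13-LKO label 4 rose with sucrose and 2 with fructose, against 2.23% and 2.94% of all genes, *Pklr* and *Tkfc* being in both. Against control, *Tkfc* was lower under the MED13-LKO label in each diet (by -0.93 in fasted, -1.27 in sucrose-fed and -1.30 in fructose-fed mice, adjusted p = 0.0279, 0.00915 and 0.00678), and *Cs* and *Idh1* were lower with sucrose (-0.53 and -0.35).

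Among 16 tested regulators, 6 rose and 2 fell with sucrose in control liver, where 4.85% of all genes tested rose and 3.72% fell. *Srebf1*, which encodes SREBP-1c, rose by 1.91 (adjusted p = 0.00274) and *Mlxipl* by 0.65 (adjusted p = 0.0158), and *Insig1*, an SREBP target that holds SREBP back in the endoplasmic reticulum, from 8355 and 7849 to 21229 and 16328 normalized counts (adjusted p = 0.0261), while the kinase gene *Sik1* fell by 1.96 (adjusted p = 0.0147). Counted among the 6 was *Prkaa1*, a catalytic subunit of AMP-activated kinase, listed at 0 in both fasted control mice and in control fructose mouse 1 and at 338.9 and 359.8 with sucrose, for which no fold is given. Under the MED13-LKO label *Srebf1* rose by 1.92 in sucrose-fed and 1.73 in fructose-fed mice (adjusted p = 0.00404 and 0.00716). Between genotypes *Srebf1* was not called in any 1 diet (-0.73, -0.72 and -0.33 in fasted, sucrose-fed and fructose-fed mice, adjusted p = 0.118, 0.153 and 0.503). Averaged over the diets it was lower by 0.60 (adjusted p = 0.0188), but not at equal totals (-0.28, adjusted p = 0.157), and *Mlxipl* was lower by 0.30 (adjusted p = 0.0167), which turned to 0.02 at equal totals. *Insig1*, at 5149 and 9333 normalized counts with sucrose against 21229 and 16328 in control, was lower by 1.43 (adjusted p = 0.0159), and *Lpcat3* was lower by 0.59 (adjusted p = 0.0181). *Mid1ip1*, which encodes a partner of *Thrsp* that promotes assembly of acetyl-CoA carboxylase, was listed among the paralogs and rose in all 4 feeding comparisons (2.12 to 2.63), with no call between genotypes in any diet.

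Of 13 tested paralogs of the lipogenesis enzymes, 2 rose and 2 fell with sucrose in control liver, against the same 4.85% and 3.72% of all genes. *Mid1ip1* rose by 2.52 (adjusted p = 0.000261) and the elongase *Elovl5* by 0.60 (adjusted p = 0.0173), and *Pnpla2*, the main triglyceride lipase, fell by 0.99 (adjusted p = 0.00108), as did *Elovl3* by 3.92 (adjusted p = 0.047). *Elovl5* was lower under the MED13-LKO label in fasted and in sucrose-fed mice (1738 and 1698 against 2731 and 2616, and 1978 and 2080 against 4575 and 3601 normalized counts, adjusted p = 0.0124 and 0.00163). Of the 17 genes of chain elongation, fatty acid activation and esterification, 2 rose and 2 fell with sucrose in control, against 4.85% and 3.72%. The acyl-CoA synthetase gene *Acsl3* rose by 0.97 (adjusted p = 0.000826) and was lower by 1.51 under the MED13-LKO label with sucrose (adjusted p = 7.09e-05), with 580.2 and 711.9 normalized counts against 1948 and 1715. *Cpt1a*, the transferase that malonyl-CoA inhibits, fell with sucrose in both genotypes (-0.71 in control and -0.61 under the MED13-LKO label, adjusted p = 0.022 and 0.0491) and did not differ by the test between genotypes.

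**Figure D5:**
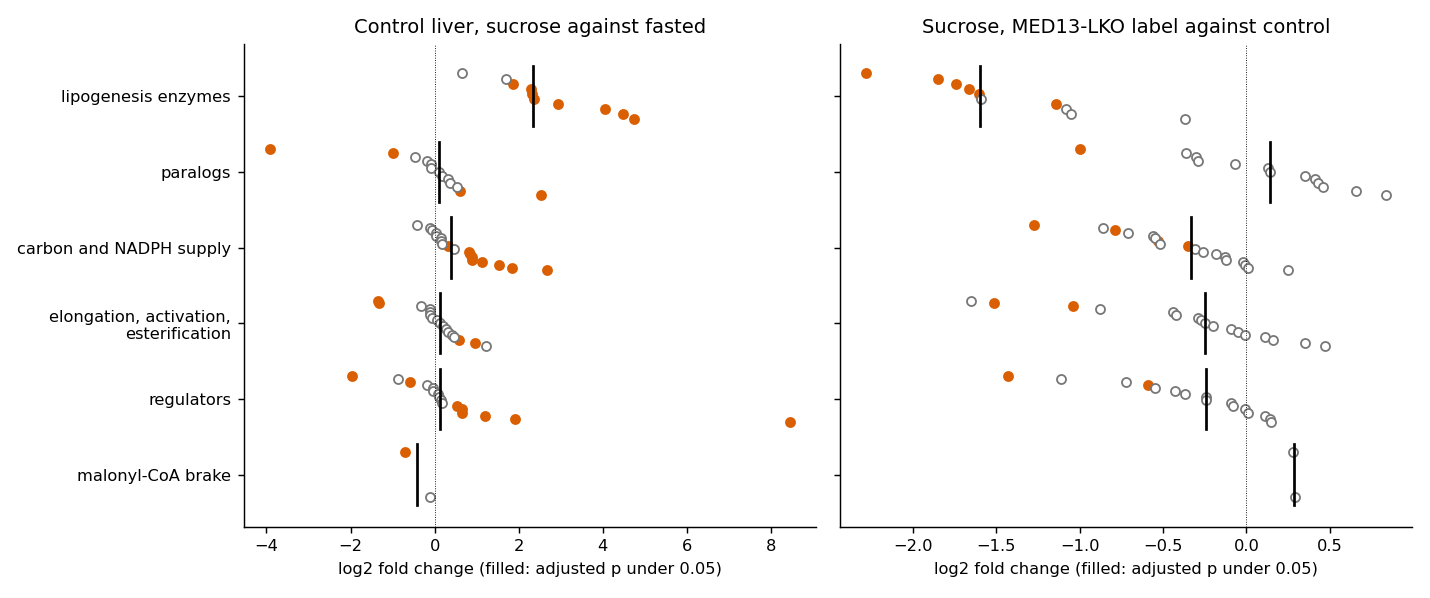
Log2 fold change of each tested gene of the lipogenesis enzymes and of 5 related lists, in control liver with sucrose against fasted (left) and in sucrose-fed liver labelled MED13-LKO against control (right), with a line at each list's median and filled points where the adjusted p is under 0.05. The lipogenesis enzymes have a median of 2.33 on the left and -1.60 on the right, and the regulator farthest to the right in the left panel is *Prkaa1*, listed at 0 in fasted control mice.

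To describe how alike the 10 genes were over all 12 libraries, each gene's log2 values were centred on their mean and compared with the mean profile of the 10 by the root mean square difference, which is 0 for identical profiles. *Acly* (0.21) and *Acaca* (0.22) were nearest to the mean profile and ranked 1 and 2 of the 12366 genes tested, as members of the average themselves. *Thrsp* (0.39) and *Me1* (0.49) followed, then *Scd1* (0.65), *Elovl6* (0.68), *Acss2* (0.76), *Acacb* (0.80), *Fasn* (0.80) and *Pnpla3* (0.90). *Fasn* and *Elovl6* were far because their changes were larger than the mean and *Acss2* because its changes were smaller. Of the related lists *Pklr* (0.33) and *Srebf1* (0.36) came nearest. Outside all lists the 5 nearest genes were *Frmd8* (0.34), *Rpia* (0.34), *Tmie* (0.39), *Slc2a4* (0.42) and *Sept9* (0.44). They were picked for following this profile in the same 12 libraries. Their values and calls below therefore follow largely from the selection and are no separate support. *Frmd8* had 201 and 189 normalized counts in fasted control, 1310 and 884 with sucrose in control and 418 and 586 with sucrose under the MED13-LKO label, and was called in both contrasts (2.46 and -1.12, adjusted p = 0.000313 and 0.0113). *Rpia*, an enzyme of the pentose phosphate pathway, had 60 and 37, then 370 and 272, and 144 and 179 in the same groups, and was called for sucrose only (2.73 and -0.98, adjusted p = 0.00105 and 0.114). *Slc2a4*, the insulin-regulated glucose transporter of muscle and fat, was low throughout, at 7.51 and 8.92 in fasted control and 119 and 60.5 with sucrose.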

How the data were processed

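Liver RNA from 12 mice was sequenced, and the authors deposited normalized counts per gene (a signal per library, not whole reads). Per the labels and the submitters' processing notes, reads were trimmed with Trim Galore 0.6.5, transcript counts were estimated with kallisto 0.46.0 and normalized with DESeq2 1.24.0, with mm10 as the build. Symbols, positions and lengths came from GENCODE M21 on GRCm38, which matched 16212 of 16346 identifiers. Kallisto can split reads between near-identical copies. Read depth was not recovered from the table, and counting intervals are not given.

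Values were analysed as log2(normalized count + 1) after removal of genes averaging under 10, which left 12366. One linear model with 6 groups was fitted to all 12 libraries in limma 3.58.1 (R 4.3.3), with empirical Bayes moderation following the mean, 15 contrasts and Benjamini-Hochberg adjustment over all genes tested; genes with an adjusted p under 0.05 are called. Fold changes are on this scale and understate those of low genes. Intervals of 95% come from the moderated standard error. The fit was tested on simulated data. No source says that mice of a group were separate litters, so p-values measure the spread between these mice. The named genes were the 10 enzymes, up to 4 called genes with the largest change in each related list, *Srebf1*, *Mlxipl*, *Mid1ip1*, *Slc25a1* and *Cpt1a*, and the 5 nearest profiles; counts of 5 or fewer were named as well. One gene that this rule names is not reported here. The genes and lists were chosen with earlier results of these data known. Other lists marked Kupffer, sinusoidal endothelial, stellate, cholangiocyte, adipocyte and lymphocyte cells. Figures and annotation used Python 3.11.15 and matplotlib 3.10.9.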

Additional observations from a re-analysis of the deposited data

Results flagged for a closer look

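One gene of the related lists had an effect that differed between genotypes. For *Acsl3*, the difference between fructose and sucrose was 1.31 higher on the log2 scale under the MED13-LKO label than in control liver (standard error 0.155, adjusted p = 0.0151 for the interaction in limma). Its normalized counts in control mice were 1948 and 1715 when fed sucrose but 1069 and 1080 when fed fructose, and under the label they were 580.2 and 711.9 for sucrose but 899.4 and 975.1 for fructose. The call was lost when only the 8 fed libraries were fitted (adjusted p = 0.0849) and without control sucrose mouse 1, MED13-LKO sucrose mouse 1 or MED13-LKO fructose mouse 2 (adjusted p up to 0.0637), with values from 1.16 to 1.46. Groups of 2 mice are too small for a test of single distant values.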

How the results depend on the processing

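Over the 10 genes and 15 comparisons, 1132 of the results under other settings kept their direction and side of the threshold. Of the rest, 30 lost a call, 15 gained one and 3 reversed direction. With 1 mouse left out 813 kept both, 62 lost a call, 10 gained one and 35 reversed direction. An uncalled result counts as kept when it stays uncalled with the same sign. The counts of called genes that moved by over 1.5 times under other settings were as follows. With 1 prior variance, fructose against fasted gave 2 in control and 2 under the MED13-LKO label, sucrose under that label gave 3, and MED13-LKO against control gave 0 fasted, 1 with sucrose and 0 with fructose. With only the compared groups, fructose against fasted in control gave 3, and MED13-LKO against control gave 5 fasted and 1 with sucrose. Fructose against sucrose in control gave 1 with a pseudocount of 0.1, with no filter and with equal 75th percentiles, and MED13-LKO against control with fructose gave 0 at equal totals. With equal totals, *Fasn* and *Acss2* in that comparison reversed to 0.12 and 0.18 and *Mlxipl* averaged over diets to 0.02, and *Pnpla3* averaged over diets reversed to -0.03 with a pseudocount of 10. The cause was not tested.

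With 1 mouse left out, where the lone mouse of a group is assumed to vary like the others, the counts ran from 1 to 4 (fructose against fasted, control), 2 to 5 and 1 to 4 (sucrose and fructose under the MED13-LKO label), 0 to 1 (fructose against sucrose in control and averaged, and the sucrose interaction), 0 to 1, 1 to 6 and 0 to 0 (MED13-LKO against control when fasted, with sucrose and with fructose). Uncalled values that changed sign ran as follows. For fructose against sucrose under the label they were *Fasn* -0.70 to 0.38, *Acly* -0.66 to 0.28, *Scd1* -0.81 to 0.49, *Pnpla3* -0.78 to 0.53, *Acacb* -0.56 to 0.08 and *Acss2* -0.21 to 0.37. For fructose against fasted under the label it was *Acacb*, -0.26 to 0.38. For MED13-LKO against control they were *Thrsp* -1.39 to 0.58 fasted, *Acacb* -0.83 to 0.09 with sucrose and -0.16 to 0.75 with fructose, *Fasn* -0.41 to 0.00 and *Acss2* -0.32 to 0.03 with fructose, and *Pnpla3* -0.15 to 0.50 averaged. For the fructose interaction they were *Scd1* -0.19 to 0.71, *Elovl6* -0.31 to 0.40, *Acaca* -0.49 to 0.12, *Thrsp* -1.47 to 0.50, *Acly* -0.18 to 0.40 and *Fasn* -0.03 to 0.55. *Thrsp* ran from -1.64 to 0.33 in the sucrose interaction and from -0.27 to 0.62 in that of the sugars.

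No pairing of the mice by replicate number was seen: correlations of same-numbered deviations ran from -0.142 to 0.078 over 15 pairs of groups. With 2 mice per group this cannot exclude a pairing, and the submitters' column names number fed mice differently from fasted mice. With the replicate block, 8 genes were called for sucrose and 4 for fructose against fasted in control, where *Acly* was lost (adjusted p = 0.0623), and no other call among the 10 genes changed. The 116 calls of related genes were each refitted several times. Under other settings 782 of these results kept their call, 108 lost significance and 1 reversed. With 1 mouse left out 571 kept their call and 193 lost significance. Depth is unknown, and 2 mice per group limit precision.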

Other observations

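The lipin genes *Lpin1* and *Lpin2*, phosphatidate phosphatases of triglyceride synthesis, fell with feeding in both genotypes. *Lpin2* fell by 1.33 with sucrose and 1.70 with fructose in control liver and by 1.95 and 1.92 under the MED13-LKO label, and *Lpin1* fell by 1.35, 1.57, 1.49 and 1.82 in the same order, each called by limma. With sucrose *Lpin2* was lower under the label, at 2283 and 2551 normalized counts against 4678 and 5244 (-1.04, adjusted p = 0.0113). *Trib1*, a pseudokinase gene, was lower under the label in fasted and fructose-fed mice (-0.65 and -1.02, adjusted p = 0.0174 and 0.00222). *Gpam*, the acyltransferase of the first esterification step, had 0 to 174 normalized counts, among them 0 in control fructose mouse 2, and *Prkaa1* had 0 in 3 control libraries and 86.07 to 359.8 in the other 9, and a listed 0 can be a failed estimate.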
